A study of Rattus norvegicus with 24 samples.

Results

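The neutrophil marker genes described here are 10 genes known to be expressed in neutrophils: S100a8, S100a9, Csf3r, Cxcr1, Cxcr2, Itgam, Ncf1, Mmp8, Mmp9 and Slpi. They were chosen by name, and each was read from probe sets that the platform annotation assigns to that gene alone. This gave 11 of the 31139 probe sets, 2 for Mmp9 and 1 for each other gene, and 10 of the 13438 genes that had such a probe set. Liver RNA was measured on 24 one-colour arrays, each holding 1 male Sprague Dawley rat of 8 weeks. ANIT is alpha-naphthylisothiocyanate, which injures bile duct cells and hepatocytes of rodents. The rats received either 50 mg/kg ANIT in corn oil or corn oil alone (vehicle), as 1 intragastric dose of 10 ml/kg. They were killed 24 h after the dose, which the labels call the peak of injury, or 120 h after it, which they place in repair, with 6 separate rats in each of the 4 groups. All 24 rats had been fasted for about 18 h and had received 100 mg/kg of the thymidine analogue BrdU intraperitoneally about 2 h before death, the vehicle rats included.

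Neutrophils are short-lived granulocytes that leave the blood through the endothelium of an injured tissue. In the liver they gather in sinusoids and around damaged ducts, drawn by chemokines of the CXC family that act on CXCR1 and CXCR2. Their maturation is driven by the cytokine G-CSF, and they kill with an oxidase, with stored proteases and with the abundant cytosolic S100A8 and S100A9 proteins. Several of these transcripts are also made elsewhere: monocytes make S100a8, S100a9, Itgam and Ncf1, and epithelia make Slpi. In whole liver, more cells of a type and more RNA per cell cannot be told apart.

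Values are deposited log2 expression values, so a difference of 1 is 2-fold. A change is the difference of 2 group means of 6 arrays each, with its standard error. A gene is called when its limma p, adjusted by Benjamini-Hochberg over 13438 genes, is under 0.05. The number of arrays limits the precision of every value. The tissue label held up: the mean level of 7 hepatocyte genes lay between 12.7 and 12.9 on all 24 arrays. Of the neutrophil genes, the 7 with the lowest means are named dim here. Csf3r, Cxcr1, Cxcr2, Itgam, Ncf1, Mmp8 and Mmp9 ran only from 2.99 to 5.28 over all arrays, against 2.34 to 3.10 for the 23 nonspecific control probe sets. On every array except 1 for Ncf1 they were brighter than the brightest such control. S100a8, S100a9 and Slpi had higher means and wider ranges, of 5.23 to 8.62, 5.0 to 7.08 and 5.79 to 9.61. The lowest S100a9 values lay within the range of Cxcr2, and the mean of S100a9, like those of the 7 dim genes, was below that of the median gene, so S100a9 was not tested in the setting that leaves out dim genes. Brightness differs between probe sets for reasons other than transcript number, so it does not order the genes by abundance.

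Arrays also differed in ways that the group labels do not give. The 6 arrays with the narrowest spread of values belonged to vehicle rats 3, 4 and 5 of 24 h and ANIT rats 4, 5 and 6 of 120 h. The spiked hybridisation controls averaged between 10.81 and 11.16 in the groups, and ran from 10.48 to 11.69 on single arrays. These controls stood at 11.32 to 11.69 on the 6 narrow arrays, and at 11.19 or less on every other array. RNA integrity was read from beta-actin, as the log2 ratio between its 3' and 5' control probe sets. That ratio was 2.84 ± 0.05 (SD, n = 6) among vehicle rats and 3.12 ± 0.07 among ANIT rats at 24 h, and 2.83 ± 0.08 and 2.76 ± 0.15 at 120 h. At 24 h it ran from 2.77 to 2.91 in vehicle rats and from 2.98 to 3.18 in ANIT rats, without overlap. A fit with the ratio as a covariate therefore cannot tell it apart from ANIT at that time. Some fits with these measures stand beside the results, and their part was not tested beyond those fits. With group means taken off, the control level had a Pearson's r of 0.59 with Cxcr2, 0.55 with Mmp8 and 0.53 with Ncf1. It had 0.46 with Cxcr1 and -0.46 with S100a8, and between -0.15 and 0.24 with the rest of the 10 genes.

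S100a8 and S100a9 lie next to each other on rat chromosome 2, with 0 protein-coding genes between them, and Cxcr1 and Cxcr2 are likewise neighbours on chromosome 9 (RefSeq gene order, assembly GRCr8). Slpi and Mmp9 share chromosome 3 with 35 protein-coding genes between them. The RefSeq promoter table held 7 of the 10 genes, not S100a8, Slpi or Mmp9. The 250 bases before the annotated start are shown for S100a9, which was called at 24 h, and for Mmp8, which was not. Both are in assembly GRCr8, S100a9 on the minus strand at chr2:178490623-178490872 and Mmp8 on the plus strand at chr8:13008640-13008889. Each sequence runs 5′ to 3′ along the strand of its gene, and capitals mark matches to the motifs searched.
S100a9: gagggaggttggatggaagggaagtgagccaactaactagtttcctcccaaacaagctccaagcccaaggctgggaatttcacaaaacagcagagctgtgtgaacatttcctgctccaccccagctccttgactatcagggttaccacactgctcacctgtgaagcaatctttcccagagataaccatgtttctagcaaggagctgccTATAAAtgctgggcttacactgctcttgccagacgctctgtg
Mmp8: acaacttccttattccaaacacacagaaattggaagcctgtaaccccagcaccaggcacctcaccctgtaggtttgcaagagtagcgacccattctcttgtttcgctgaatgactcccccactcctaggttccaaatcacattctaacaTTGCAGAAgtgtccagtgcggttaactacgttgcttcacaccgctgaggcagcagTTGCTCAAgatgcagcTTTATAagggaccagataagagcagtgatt
The motifs were TTGCNNAA, the core bound by C/EBP factors of the granulocyte lineage, GGNNTTTCC, which takes in a common form of the site of NF-kB, and TATAAA, each searched on both strands. S100a9 held 1 TATAAA match at -42 to -37 from the start. Mmp8 held TTGCNNAA matches at -101 to -94 and -46 to -39, and a TATAAA match on the other strand at -30 to -25. Itgam held 1 TTGCNNAA match at -199 to -192. Csf3r, Cxcr1, Cxcr2 and Ncf1 held no match to any motif in this window, and GGNNTTTCC occurred in 0 of the 7. Over 33469 RefSeq rat promoters of this length, TTGCNNAA was found in 9.22%, TATAAA in 12.9% and GGNNTTTCC in 5.19%. These matches are letters in a window, not sites shown to be bound.

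At 24 h after ANIT, 3 of the 10 genes rose: S100a8, S100a9 and Slpi. The other 7 were not called, and 0 fell. Over all genes tested 18.2% were called in this comparison, 12.9% higher and 5.31% lower. The median change of the 10 genes was 0.0045, against 0.0046 over all genes. At 120 h 0 of the 10 were called, where 2.02% of all genes were, 0.513% higher and 1.51% lower. At an unadjusted p under 0.05 there were 4 of the 10 at 24 h and 1 at 120 h, against 4159 and 1865 of all genes. The plot of changes by gene sets the times side by side.

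**Figure D1:**
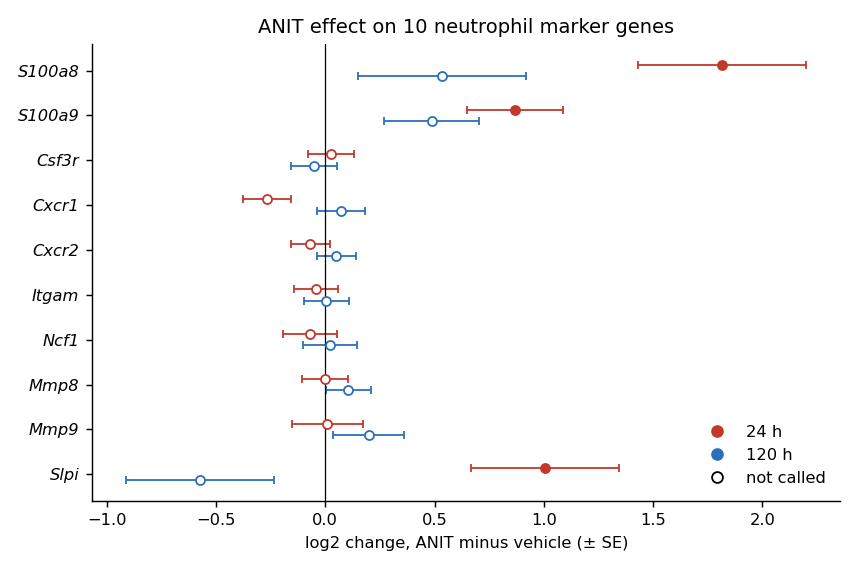
Log2 change of each of the 10 neutrophil marker genes, ANIT minus vehicle (x axis, with standard error, 6 arrays per group), at 24 h in red and at 120 h in blue. Filled points passed the adjusted p threshold: S100a8, S100a9 and Slpi at 24 h and no gene at 120 h.

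S100a8 encodes a calcium-binding subunit of calprotectin, which makes up much of the cytosolic protein of neutrophils. Its log2 level in vehicle rats at 24 h was 5.23 at the lowest, 6.52 at the median and 7.50 at the highest. In ANIT rats at 24 h it was 7.70, 8.19 and 8.62. The groups did not overlap: all 6 ANIT rats lay above all 6 vehicle rats, a separation upwards that 5.54% of all genes showed. S100a8 rose by 1.82 ± 0.38 on the log2 scale, or 3.52-fold (limma adjusted p = 0.0013). The call of S100a8 held in each of the 12 other settings tried and without each of the 24 rats in turn. Its highest limma adjusted p was 0.048 over the settings, close to the threshold, and 0.0053 without 1 rat.

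At 120 h S100a8 was mixed. Vehicle rats had log2 levels of 5.31, 6.15 and 6.86 at the lowest, median and highest, and ANIT rats 5.58, 6.51 and 8.22. ANIT rats 1, 2 and 3 stood at 7.03, 7.26 and 8.22, above every vehicle rat of that time, while rats 4, 5 and 6 stood between 5.58 and 5.99. The change was 0.54 ± 0.38 (limma adjusted p = 0.55). The low 3 are the rats of the narrow arrays. Without the 6 narrow arrays the change at 120 h was 1.41 ± 0.27 (limma adjusted p = 0.014). In vehicle rats at 24 h the narrow arrays read 5.23, 5.56 and 7.50 for S100a8 and the others 6.40, 6.64 and 6.98, so there the narrow arrays held both the lowest values and the highest.

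S100a9 encodes the partner subunit of S100a8 in calprotectin. Its log2 level at 24 h was 5.01, 5.42 and 6.23 at the lowest, median and highest in vehicle rats, and 5.80, 6.27 and 7.08 in ANIT rats. In 5 of 6 ANIT rats it lay above all vehicle rats. S100a9 rose by 0.87 ± 0.22, or 1.83-fold (limma adjusted p = 0.0060), a smaller rise than that of S100a8 on the log2 scale, though the difference between the genes was not tested. With the beta-actin ratio as a covariate the change was 1.0 (limma adjusted p = 0.069). At 120 h the levels were 5.0, 5.18 and 5.57 in vehicle rats and 5.09, 5.73 and 6.52 in ANIT rats, which overlapped. The change at 120 h was 0.49 ± 0.22 (limma adjusted p = 0.32), and 0.80 without the 6 narrow arrays (limma adjusted p = 0.096).

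Ordered by group mean, S100a8 stood at 8.20 ± 0.30 (SD, n = 6) in ANIT rats at 24 h, then 6.63 ± 1.04 in ANIT rats at 120 h, 6.39 ± 0.86 in vehicle rats at 24 h and 6.10 ± 0.50 in vehicle rats at 120 h. S100a9 had the same order, at 6.36 ± 0.42, 5.73 ± 0.50, 5.49 ± 0.44 and 5.24 ± 0.21. For both genes the lower 3 groups overlapped, and neighbours among them differed by less than the larger SD of the pair. The highest ANIT rat of 120 h lay within the range of the 24 h ANIT rats for both genes.

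S100a8 and S100a9 varied together in the ANIT rats of 24 h. In these 6 rats Pearson's r was 0.96 (exact permutation p = 0.00833, adjusted p = 0.0333 over 4 groups) and Spearman's rho 0.94 (exact permutation p = 0.0167, adjusted p = 0.0668). After adjustment r passed in this group and rho did not. Without the 2 rats farthest from the median of S100a8, r was 0.94 over the 4 rats left. In the other groups neither r nor rho passed after adjustment, and no difference in r between groups was tested. ANIT rats at 120 h had an r of 0.87 and a rho of 0.83 (exact permutation p = 0.0389 and 0.0583, adjusted p = 0.0778 and 0.117), but an r of 0.54 without 2 rats. Vehicle rats had an r of 0.68 at 24 h and 0.67 at 120 h, and a rho of 0.60 at both times (exact permutation p = 0.106 and 0.156 for r, 0.242 for rho, adjusted p = 0.141, 0.156 and 0.242). Without the 2 farthest rats these r were 0.53 and 0.01. Over deviations from the group means on the 24 arrays, S100a8 and S100a9 had an r of 0.76, while the other 44 pairs of the 10 genes ran from -0.43 for Cxcr1 with Slpi to 0.49 for Cxcr2 with Mmp8. All of these values share arrays, so they also share what differs between arrays.

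**Figure D2:**
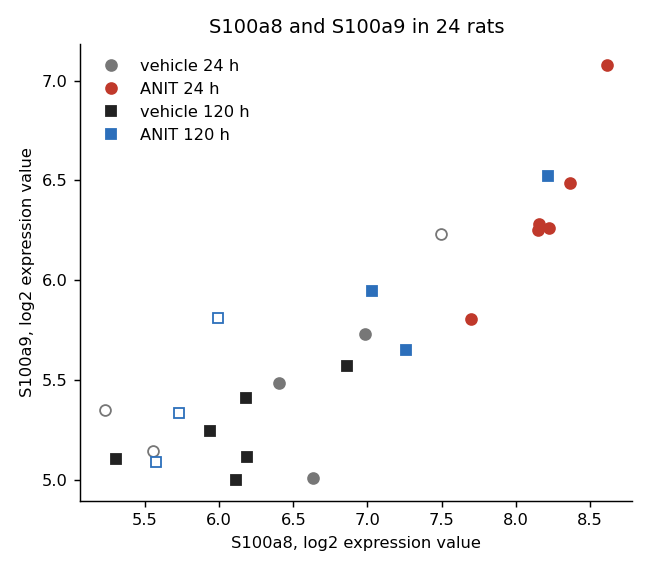
S100a9 (y axis) against S100a8 (x axis), log2 expression values, 1 point per rat, coloured and shaped by group, with open symbols for the 6 arrays of narrowest spread. The 6 ANIT rats of 24 h lie to the right, from 7.70 to 8.62 in S100a8, and 1 ANIT rat of 120 h lies among them. In S100a9 these 6 rats ran from 5.80 to 7.08 and overlapped the vehicle rats of 24 h, which reached 6.23.

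Slpi encodes an inhibitor of neutrophil elastase, made by neutrophils and by epithelia. Its log2 level at 24 h was 5.79, 7.57 and 8.14 at the lowest, median and highest in vehicle rats, and 7.28, 8.52 and 8.87 in ANIT rats. In 5 of 6 ANIT rats it lay above all vehicle rats, and the sixth overlapped them. Slpi rose by 1.0 ± 0.34, or 2.01-fold (limma adjusted p = 0.039). The lowest vehicle rat, replicate 6, stood well below the others, and without it the change was 0.69 (limma adjusted p = 0.11). The call was also lost without vehicle rat 3, 4 or 5 or ANIT rat 1, 3, 4 or 5 of that time, and in 6 of 12 other settings. With the beta-actin ratio as a covariate, which did not overlap between these groups, the change was 0.39 (limma adjusted p = 0.79). Without the 6 narrow arrays the change was 1.07 (limma adjusted p = 0.17).

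For Slpi the vehicle rats of 120 h were the highest group. They had log2 levels of 7.78, 8.51 and 9.61 at the lowest, median and highest, and ANIT rats at 120 h had 7.47, 8.10 and 8.31. The ANIT effect at 120 h was -0.57 ± 0.34 (limma adjusted p = 0.46). The group means were 8.55 ± 0.68 (SD, n = 6) in vehicle rats at 120 h, 8.37 ± 0.61 in ANIT rats at 24 h, 7.97 ± 0.34 in ANIT rats at 120 h and 7.37 ± 0.84 in vehicle rats at 24 h, and each differed from the next by less than the larger SD of the pair. Vehicle rats at 120 h minus vehicle rats at 24 h gave 1.18 ± 0.34 (limma adjusted p = 0.23), with 4 of 6 rats of 120 h above all rats of 24 h. In that comparison 0 of the 10 genes were called, against 0.00744% of all genes, which is 1 gene. At an unadjusted p under 0.05 there was 1 of the 10 and 1639 of all genes.

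The ANIT effect changed between the times for 1 of the 10 genes, Slpi, where 14.3% of all genes were called, 3.33% with a higher and 11% with a lower effect at 120 h. Its effect at 120 h minus that at 24 h was -1.58 ± 0.48 (limma adjusted p = 0.028), a difference that contains the one between the vehicle groups as well as the one between the ANIT groups. The call was lost without ANIT rat 3 of 24 h, vehicle rat 3 of 120 h or ANIT rat 6 of 120 h (limma adjusted p from 0.050 to 0.055), and in 5 of 11 other settings. For S100a8 the difference was -1.28 ± 0.54 (limma adjusted p = 0.11). It was -1.60 (limma adjusted p = 0.025) without ANIT rat 3 of 120 h, the rat at 8.22, and -0.12 (limma adjusted p = 0.93) without the 6 narrow arrays. For S100a9 it was -0.38 ± 0.31 (limma adjusted p = 0.41). In the main fit the ANIT effect on S100a8 and S100a9 at 24 h was therefore not shown to differ from that at 120 h. The levels of the ANIT rats were not compared between the times by a test.

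**Figure D3:**
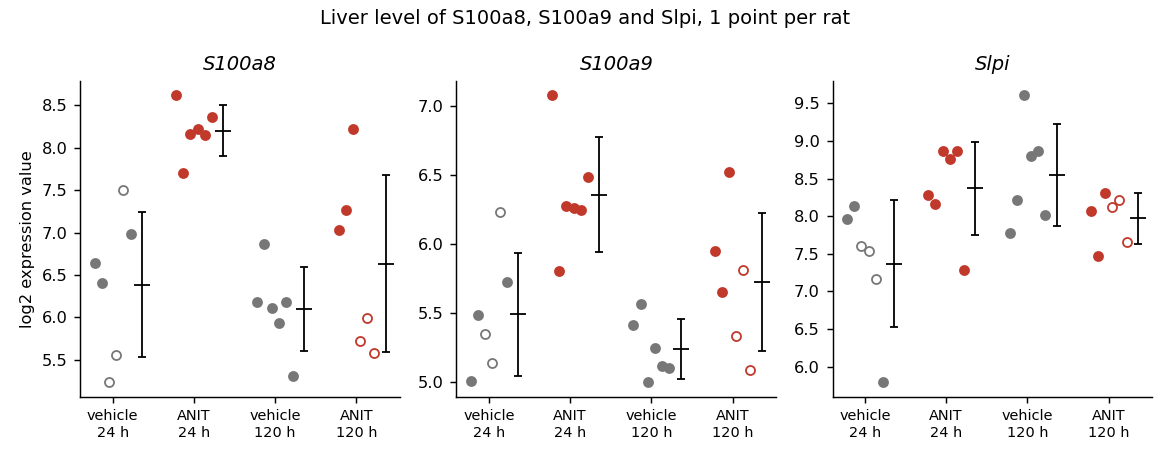
Log2 expression value (y axis) of S100a8, S100a9 and Slpi in the 4 groups, 1 point per rat, with the mean and SD of 6 rats as a bar. Open symbols mark the 6 arrays of narrowest spread: 3 are the low ANIT rats of 120 h in the S100a8 panel and 3 are vehicle rats of 24 h, at 5.23, 5.56 and 7.50 there. The ANIT rats of 24 h lie above all vehicle rats of 24 h for S100a8.

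None of the 3 receptors was called. Csf3r, the receptor for G-CSF, had log2 levels of 3.04, 3.36 and 3.51 at the lowest, median and highest in vehicle rats at 24 h and 3.16, 3.34 and 3.60 in ANIT rats. The change was 0.03 ± 0.10. Cxcr2, the receptor of most CXC chemokines that draw neutrophils, had 4.91, 4.97 and 5.12 in vehicle rats and 4.83, 4.89 and 5.10 in ANIT rats, a change of -0.07 ± 0.09. Both pairs of groups overlapped. Cxcr1, its neighbour and paralogue, was lower in the ANIT rats at 24 h by a margin that did not pass the adjustment. It had 4.27, 4.42 and 4.61 in vehicle rats and 3.93, 4.20 and 4.31 in ANIT rats, with 5 of 6 ANIT rats below all vehicle rats. The change was -0.27 ± 0.11 (limma adjusted p = 0.093), and it was called in 1 of 11 other settings, with array weights, at -0.27 (limma adjusted p = 0.049). It was -0.11 (limma adjusted p = 0.82) with the beta-actin ratio as a covariate, the smallest size over the settings, and -0.18 (limma adjusted p = 0.27) with the control level as one. At 120 h the group means of Cxcr1 were 4.36 ± 0.18 (SD, n = 6) after ANIT and 4.29 ± 0.26 after vehicle.

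Itgam, Ncf1, Mmp8 and Mmp9 were not called either, and in each the groups overlapped. Itgam encodes the alpha chain of the integrin Mac-1, and its log2 level was 3.72, 3.81 and 3.92 at the lowest, median and highest in vehicle rats at 24 h against 3.49, 3.80 and 4.0 in ANIT rats. Ncf1, the p47phox organiser of the NADPH oxidase, had 3.33, 3.49 and 3.75 against 2.99, 3.43 and 3.95. In both genes the ANIT rats spread to each side of the vehicle rats, with changes of -0.04 ± 0.10 for Itgam and -0.07 ± 0.12 for Ncf1. Mmp8, the neutrophil collagenase, had 3.12, 3.32 and 3.74 against 3.21, 3.29 and 3.64. Mmp9, the gelatinase of the tertiary granules, had 3.22, 3.89 and 4.0 against 3.34, 3.79 and 4.33, and its change was 0.01 ± 0.16. The other Mmp9 probe set gave -0.03 ± 0.17, so both probe sets of the gene were near 0 at 24 h. At 120 h they gave 0.20 ± 0.16 and 0.24 ± 0.17.

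At 120 h the 7 dim genes were again not called, with limma adjusted p from 0.61 for Mmp9 to 0.99 for Itgam. Cxcr1 stood at 0.07 ± 0.11, Cxcr2 at 0.05 ± 0.09 and Csf3r at -0.05 ± 0.10. Mmp8 stood at 0.11 ± 0.10, Ncf1 at 0.02 ± 0.12 and Itgam at 0.0049 ± 0.10. In Mmp8 the ANIT rats ran from 3.17 to 3.67, with the 3 highest on narrow arrays, and the vehicle rats from 3.05 to 3.35. The 95% intervals of the 7 dim genes show what changes the arrays could have missed. At 24 h they ran from -0.49, the lower bound of Cxcr1, to 0.34, the upper bound of Mmp9. At 120 h they ran from -0.27 for Csf3r to 0.53 for Mmp9. The rise of S100a8 and of S100a9 lay above all of these bounds at 24 h. Near the brightness of the nonspecific controls a probe set can understate a change, so these bounds hold for the array values and not for transcript numbers.

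**Figure D4:**
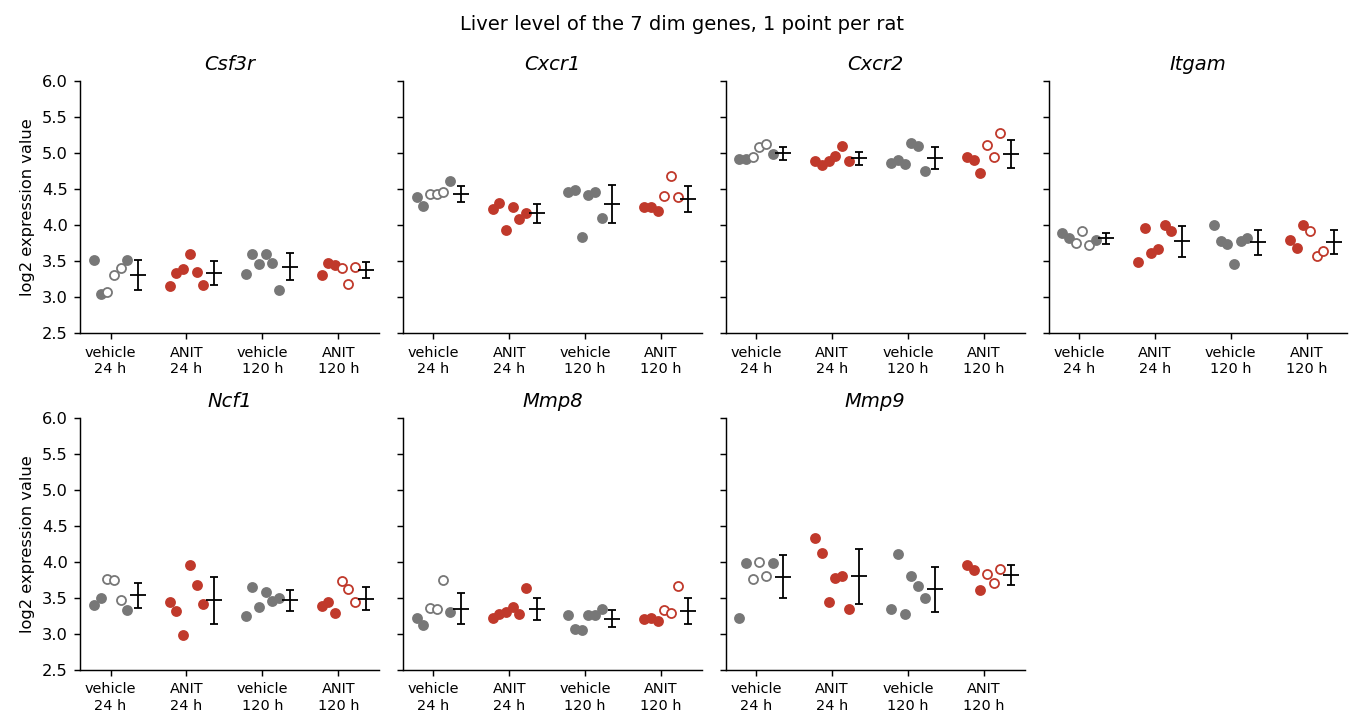
Log2 expression value (y axis, same scale in each panel) of the 7 dim genes in the 4 groups, 1 point per rat, with the mean and SD of 6 rats as a bar and open symbols for the 6 arrays of narrowest spread. All values lie between 2.99 and 5.28, and the groups overlap in each panel.

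Other genes linked to neutrophils were taken from lists of related genes, not all of them particular to these cells. The counts of the lists at 24 h stand against the 18.2% called over all genes. Of 20 listed granule proteins 9 were measured, and 2 rose, 0 fell and 7 were not called at 24 h (median change 0.02, against 0.0046 over all genes). The risers were Lcn2, lipocalin-2, which hepatocytes also make in the acute phase (5.33 ± 0.36, limma adjusted p = 2.8e-10), and Lyz2, the lysozyme of neutrophils and macrophages (0.54 ± 0.14, limma adjusted p = 0.0086). Camp, the cathelicidin of specific granules, stood at 0.03 ± 0.13. Defa5, a defensin of the list whose expression in neutrophils was not tested, stood at -0.16 ± 0.16. Of 26 further surface and signalling genes 14 were measured, and 2 rose, 0 fell and 12 were not called (median 0.01). These 2 were Il1r2, the decoy receptor for interleukin-1 (0.84 ± 0.16, limma adjusted p = 0.00059), and Cebpd, a transcription factor that many cells induce in inflammation (0.55 ± 0.16, limma adjusted p = 0.015). Il1r2 ran from 3.95 to 4.31 in vehicle rats and from 4.21 to 5.51 in ANIT rats at 24 h. C5ar1, the receptor for the complement fragment C5a, stood at 0.31 ± 0.13 (limma adjusted p = 0.091).

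Among the ligands of CXCR1 and CXCR2, 5 of 6 were measured and 2 rose at 24 h. Cxcl1 had log2 levels of 5.63, 7.44 and 9.26 at the lowest, median and highest in vehicle rats and 9.08, 9.54 and 9.85 in ANIT rats, a rise of 2.11 ± 0.57 (limma adjusted p = 0.011). The vehicle rats were widely spread, and the highest overlapped the ANIT rats. Cxcl2 rose by 0.65 ± 0.15 (limma adjusted p = 0.0031). Cxcl3, Cxcl6 and Ppbp stood at -0.01, -0.01 and -0.09 and were not called. So the array values of 2 ligands rose while those of their receptors were not called. Of 7 growth factor and cytokine genes 6 were measured and 0 were called (median -0.06, with 3 above 0 and 3 below). Csf3, which encodes G-CSF, stood at -0.26 ± 0.10 (limma adjusted p = 0.058) and Il6 at 0.38 ± 0.20 (limma adjusted p = 0.19).

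Partners of Itgam and Ncf1 were counted in the same way. Of 10 integrin partners and endothelial ligands 9 were measured and 1 rose at 24 h. It was Icam1, the endothelial ligand of Mac-1, at 1.38 ± 0.22 (limma adjusted p = 5.6e-05), and its vehicle rats ran from 6.45 to 7.02 and its ANIT rats from 7.33 to 8.78. Itgb2, the beta chain that pairs with Itgam, stood at 0.29 ± 0.17 (limma adjusted p = 0.26), Sele at 0.02 and Selp at -0.07. Of 6 partners of Ncf1 in the oxidase 5 were measured and 0 were called, though their median change was 0.28. Cyba, the small chain of its membrane core, stood at 0.41 ± 0.18 (limma adjusted p = 0.11), and Cybb, the catalytic chain, at -0.04 ± 0.13.

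Relatives of the S100 genes, of the proteases and of Slpi followed. Of 12 other S100 genes 11 were measured, and 4 rose and 0 fell at 24 h (median 0.09). S100a4 rose by 0.83 ± 0.18, S100a11 by 0.78 ± 0.17, S100a6 by 0.78 ± 0.24 and S100a10 by 0.54 ± 0.17 (limma adjusted p from 0.0014 to 0.027). S100a6 and S100a4 lie close to S100a8 on chromosome 2, with 1 and 3 protein-coding genes between, and S100a11 and S100a10 lie farther off, with 59 and 60. S100a5 and S100a3, with 2 and 4 genes between, stood at -0.30 and -0.13 and were not called. Of 17 other metalloproteinases and inhibitors, all measured, 2 rose and 0 fell (median -0.05), and both are inhibitors: Timp1 at 1.86 ± 0.24 (limma adjusted p = 3e-06) and Timp3 at 1.15 ± 0.18 (limma adjusted p = 3.6e-05). Of 8 further genes with the WAP domain of Slpi 6 were measured, and 1 rose, Wfdc21, by 2.45 ± 0.16 (limma adjusted p = 2.8e-10), with 0 falling and a median of -0.16.

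**Figure D5:**
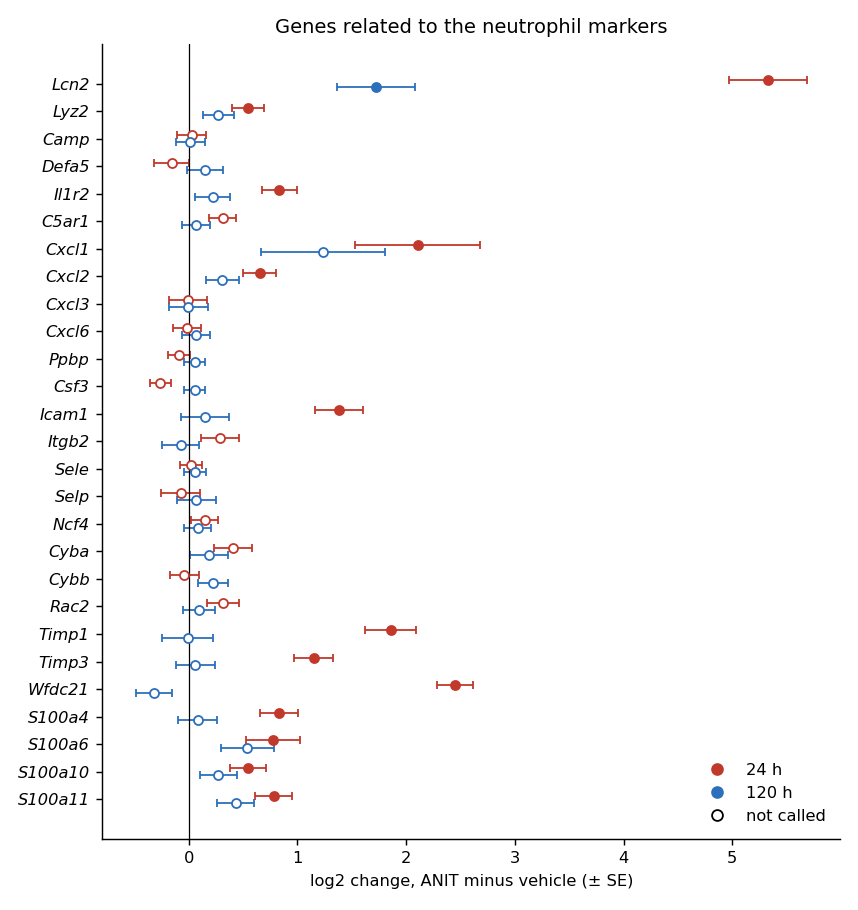
Log2 change of genes related to the neutrophil markers, ANIT minus vehicle (x axis, with standard error, 6 arrays per group), at 24 h in red and at 120 h in blue, with open points not called. Lcn2 has the largest change shown, 5.33 at 24 h and 1.72 at 120 h, and is the 1 gene shown that was called at 120 h.

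At 120 h, where 2.02% of all genes were called, 2 of these related genes were. Lcn2 rose by 1.72 ± 0.36 (limma adjusted p = 0.011), and its ANIT rats ran from 6.96 to 8.10 against 4.75 to 6.45 in vehicle rats. Wfdc3, a WAP domain gene, fell by 0.69 (limma adjusted p = 0.044). No other granule, surface, oxidase, integrin, ligand, growth factor, S100 or metalloproteinase gene of the lists was called. Cxcl1 stood at 1.24 ± 0.57 in ANIT rats that ran from 5.86 to 8.96.

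Markers of other cells that share these transcripts were counted too, against the 18.2% of all genes called at 24 h and 2.02% at 120 h. Of 15 monocyte and macrophage markers 14 were measured, 2 rose and 0 fell: Lgals3, galectin-3, by 1.13 ± 0.23 and the complement gene C1qb by 0.30 ± 0.09. The mean level of the 14 ran from 6.92 to 7.22 in vehicle rats and from 7.07 to 7.38 in ANIT rats. Their median change was 0.13, with 9 above 0 and 5 below, and Csf1r and Ccr2 stood at 0.01 and -0.07. At 120 h 0 of the 14 were called, and their mean level ran from 7.0 to 7.35 in vehicle and from 7.11 to 7.63 in ANIT rats. Their median change at that time was 0.19, with 11 above 0 and 3 below. Of 9 general leukocyte genes 0 were called at either time, with medians of 0.17 and 0.26. Of 4 Kupffer cell markers Cd163 rose, by 0.38 at 24 h and 0.43 at 120 h. Of 10 lymphocyte markers Cd8a and Cd79b fell at 24 h, and their mean level ran from 4.74 to 4.93 in vehicle and from 4.42 to 4.72 in ANIT rats. The part of these cells in the values of S100a8 and S100a9 was not tested.

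Tissue cells that could make Slpi or S100 proteins were read in the same way. Of 8 bile duct markers 0 were called at 24 h, and their mean level ran from 4.46 to 4.61 in vehicle and from 4.35 to 4.65 in ANIT rats. At 120 h Krt19 rose by 0.73 and Cftr by 0.49, and the mean level ran from 4.44 to 4.63 in vehicle and from 4.71 to 4.92 in ANIT rats. Of 6 endothelial markers Lyve1 rose and Stab2 and Kdr fell at 24 h. Of 7 hepatocyte genes Fgb, a fibrinogen chain of the acute phase, rose by 0.41 and Ahsg fell by 0.27. Of 3 erythroid genes, a sign of blood held in the tissue, 0 were called at either time. Their part in the results was not tested.

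The genes whose values followed a member most closely over the 24 arrays were sought among all genes other than the 10 members. For S100a8 they were St3gal4, a sialyltransferase (r = 0.93, rho = 0.93), Zfp46 (r = 0.90, rho = 0.89), the chemokine Cxcl1 (r = 0.89, rho = 0.88), the transcription factor Stat3 (r = 0.89, rho = 0.89) and Nfkbiz, a regulator of NF-kB (r = 0.88, rho = 0.85). For S100a9 they were Nfkbiz (r = 0.85, rho = 0.84), St3gal4 (r = 0.83, rho = 0.79) and Cisd2 (r = 0.82, rho = 0.74). For Slpi they were Wfdc2, a relative with the same domain (r = 0.71), Ppp6r1 (r = 0.71) and Gda (r = 0.63). Deviations from the group means leave the group effects out. Over these, the 5 genes closest to S100a8 were Nopchap1 and St3gal4 (r = 0.83 for both), Tbp (r = 0.81), Thumpd3 (r = 0.80) and Vapb (r = 0.79), of which St3gal4 was called at 24 h. The 3 closest to S100a9 were Nfkbiz (r = 0.69), Atp5mk and Fabp5 (r = 0.65 for both), and those closest to Slpi were Wfdc2 (r = 0.83), Fndc3c1 (r = 0.73) and Camk2n1 (r = 0.68). Wfdc2 was not called at 24 h (-0.02 ± 0.29). Each of the 7 dim genes had a best partner at an r between 0.67 and 0.82 over the 24 arrays. Each partner was picked as the closest of all genes that are not members. These values are descriptions over shared arrays, chosen for being high.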

How the data were processed

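The authors deposited log2 expression values per probe set for 24 liver arrays. The submitters' processing notes name RMA and Partek, with versions and settings not given in the sources used. Values were analysed as deposited (array medians 5.34 to 5.54). Probe sets were named by the platform annotation: 19068 had 1 gene, 573 several and 11498 none listed. Each of 13438 genes was read from its probe set of highest mean. All genes were fitted with limma 3.58.1 in R 4.3.3 (lmFit, eBayes, 1 mean per group), with Benjamini-Hochberg adjustment per contrast, after a test on simulated data. Exact permutation tests used scipy 1.17.1 and plots matplotlib 3.10.9 in Python 3.11.15. Groups came from the labels, and replicate numbers follow accession order. The members, the 17 other lists and the tests were chosen with earlier results of these data known. Named genes are the members and, in each list, those of smallest p or directly related to a member. Others are the non-members closest to a member by Pearson's r over 24 arrays. Some of the genes named from the lists were picked with values known. Alternatives changed 1 choice each: normalization, gene summary, filter, covariates, array weights, groups fitted and arrays left out.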

Additional observations from a re-analysis of the deposited data

Results flagged for a closer look

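Among the 40 sets of 6 arrays formed by the 10 genes in the 4 groups, 3 held a rat that stood apart from the other 5 by Dixon's test at the 95% level, where chance gives about 1 in 20. Mmp8 read 3.64 in ANIT rat 6 of 24 h, with the nearest rat at 3.36, and 3.67 in ANIT rat 6 of 120 h, with the nearest at 3.33. Mmp9 read 3.22 in vehicle rat 1 of 24 h, with the nearest at 3.76. All 3 are dim values. The ANIT effect on Slpi at 120 h minus that at 24 h was -1.58 (limma adjusted p = 0.028), a difference between the times that was itself tested.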

How the results depend on the processing

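No paired analysis was possible because the replicate numbers follow accession order and name separate rats. The 12 other settings gave 438 values, of which 12 lost a call, 2 gained one and 0 were called with the other sign. Leaving out each of 24 rats gave 960 values, of which 11 lost a call and 1 gained one. At 24 h 3 members were called, 1 with the beta-actin ratio as a covariate (S100a8) and 4 with array weights, and 2 to 3 without 1 rat. S100a8 kept its call at 24 h throughout, at 1.46 to 1.89 over the settings, with a limma adjusted p of up to 0.048. At 120 h 0 were called, 1 without the 6 narrow arrays (S100a8), and 0 without any 1 rat. For the difference between times 1 was called, and 0 after quantile normalization, with the control level, the array SD or the beta-actin ratio as a covariate, and without the 6 narrow arrays. It was 0 to 2 without 1 rat. Between the vehicle groups it was 0 in every setting and without any 1 rat. The cause of these changes was not tested. The 7 dim genes were not equally close to the nonspecific controls, whose highest value was 3.10. Mmp8 read as low as 3.05, while Cxcr1 never read below 3.84 and Cxcr2 never below 4.72. Signal close to the controls limits the genes nearest to them, and for all 7 the intervals hold for array values.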
